A study of Mus musculus with 2 samples.

Results

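The genes described here are 40 interferon-induced genes, chosen by their symbols from the 27998 genes of the deposited gene list. Each symbol matched 1 row, and all 40 passed a minimum of 20 UMIs (unique molecular identifiers, 1 per captured RNA molecule) over both libraries, as did 9066 genes in all. The mRNA was counted in single cells sorted from mouse spinal cord for the red reporter tdTomato. The mice (strain Cx3cr1-CreER::Rosa26-tdTomato+ve, background C57BL/6J) switch the reporter on in cells that express Cx3cr1, chiefly microglia, once 4-hydroxytamoxifen is given. The injured library came from cords taken 5 days after lysolecithin, a lipid that strips myelin from axons, and the uninjured library from age-matched cords without injury. Both groups carried these alleles and had 1 mg of the drug injected 2 times in postnatal week 4. The cords were dissected 4 weeks after that. The sort kept labelled cells only, and the number and sex of the animals pooled in each library are not given in the labels.

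Type I interferons signal through the receptor chains Ifnar1 and Ifnar2 and the kinases Jak1 and Tyk2 to a transcription factor complex that contains Stat2 and Irf9. This complex binds the interferon-stimulated response element (ISRE) in promoters and switches on genes that sense foreign nucleic acid, block viral replication and feed back on the pathway. Microglia both make and respond to type I interferon, and many of these genes also answer interferon gamma. Nearly every nucleated cell type can express them.

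Promoter sequences from RefSeq (GRCm38.p6, 250 bases before to 50 after each gene's start) matched 30 of the 40 genes by symbol. The ISRE core, which is GAAA, then any 2 bases, then GAAA again, searched on both strands and counting overlapping matches, stood in 15 of these 30 (50%), against 3.99% of all 27025 genes with a promoter. The element read by interferon gamma signalling, with the core TTCNNNGAA, stood in 7 of 30 (23.3%), against 9.55% of all. The matches of both cores overlapped in Bst2 and Ifitm3. A match describes the letters and is not evidence of binding. The windows below were chosen for genes held by few injured cells (Isg15, Ifit3, Ifit3b, Rsad2) and a widely detected one (Bst2). A gene without a clear difference between the libraries (Stat2, 21 injured and 15 uninjured UMIs) was set beside them. The windows are each 100 bases, 5′ to 3′ on the gene's strand, with ISRE matches alone in capitals. They lie at chr4:156200829-156200928 (minus strand, Isg15), chr19:34583329-34583428 (plus, Ifit3), chr19:34607757-34607856 (plus, Ifit3b), chr12:26456523-26456622 (minus, Rsad2), chr8:71537543-71537642 (minus, Bst2) and chr10:128270248-128270347 (plus, Stat2).
Isg15: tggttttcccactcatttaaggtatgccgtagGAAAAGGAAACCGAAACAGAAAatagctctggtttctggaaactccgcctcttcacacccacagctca
Ifit3: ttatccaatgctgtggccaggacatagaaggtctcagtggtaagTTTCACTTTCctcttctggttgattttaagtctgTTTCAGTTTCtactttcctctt
Ifit3b: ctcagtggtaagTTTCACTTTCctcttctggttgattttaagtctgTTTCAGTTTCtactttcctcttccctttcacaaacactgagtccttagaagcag
Rsad2: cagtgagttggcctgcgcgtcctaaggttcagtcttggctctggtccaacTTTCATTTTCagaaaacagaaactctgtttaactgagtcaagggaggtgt
Bst2: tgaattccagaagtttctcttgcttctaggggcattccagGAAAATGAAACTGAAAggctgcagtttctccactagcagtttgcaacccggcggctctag
Stat2: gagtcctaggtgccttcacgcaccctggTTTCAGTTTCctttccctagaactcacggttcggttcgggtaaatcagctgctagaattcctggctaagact

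Isg15 held 3 overlapping ISRE matches in its window, Ifit3, Ifit3b and Bst2 held 2 each, and Rsad2 and Stat2 held 1 each. The upstream 250 bases of Ifit3 and Ifit3b were 86.2% identical over 218 aligned bases, and their genes lie side by side on chromosome 19 with starts 24.4 kb apart. ISRE cores stood in the windows of genes that were much higher after injury and also in those of Stat2 and Ddx58, which were not. Several genes are neighbours in GENCODE M21 (GRCm38), among them Rsad2 and Cmpk2 on chromosome 12, whose starts lie 12.8 kb apart, and Oasl2 and Oasl1 on chromosome 5, with starts 26.3 kb apart.

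The injured library kept 577 cells with a median of 4396 UMIs, and the uninjured library 695 cells with a median of 3003 UMIs. No barcode was shared between them. With 1 library per group there is no test: every difference is between these 2 libraries, and all intervals are exact 95% intervals that cover counting error only. Levels are UMIs per 1000000 UMIs of the library (CPM), in which fewer expressing cells and less RNA per cell cannot be told apart, so shares of cells are given beside them. Summed over 10 microglial markers the level was 15808 CPM in injured and 26367 CPM in uninjured cells, and over 8 monocyte markers 13.9 CPM (43 UMIs) in injured and 5.26 CPM (11 UMIs) in uninjured cells, with Ly6c2 at 0 in both.

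The 40 genes together took 5519 CPM in the injured library and 1175 CPM in the uninjured library. At least 2-fold higher levels after injury were reached by 34 of the 40 genes, against 7.22% of the 9066 genes, and 0 were at least 2-fold lower, against 11.5%. Their median log2 ratio of injured over uninjured was 2.47, against -0.15 over all genes. The 40 genes were chosen with earlier results of these data known, so these contrasts with all genes are not independent of the data. The counting interval included a log2 ratio of 0 for Irf9, Stat2, Ddx58, Parp14 and Samhd1 and lay above 0 for the other genes of the set. The share of all genes with an interval above 0 was not counted. Cells with Xist UMIs alone made up 213 of 577 injured and 6 of 695 uninjured cells, and the sex of the animals cannot be told apart from the injury over all cells. Among cells with Y-linked UMIs and no Xist UMI (147 injured, 235 uninjured) 30 genes were at least 2-fold higher and the median was 1.94. Genes with 0 uninjured UMIs in these cells, Rsad2 and Cmpk2 among them, entered as lower bounds. The share of all genes at least 2-fold higher was not counted in these cells.

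**Figure D1:**
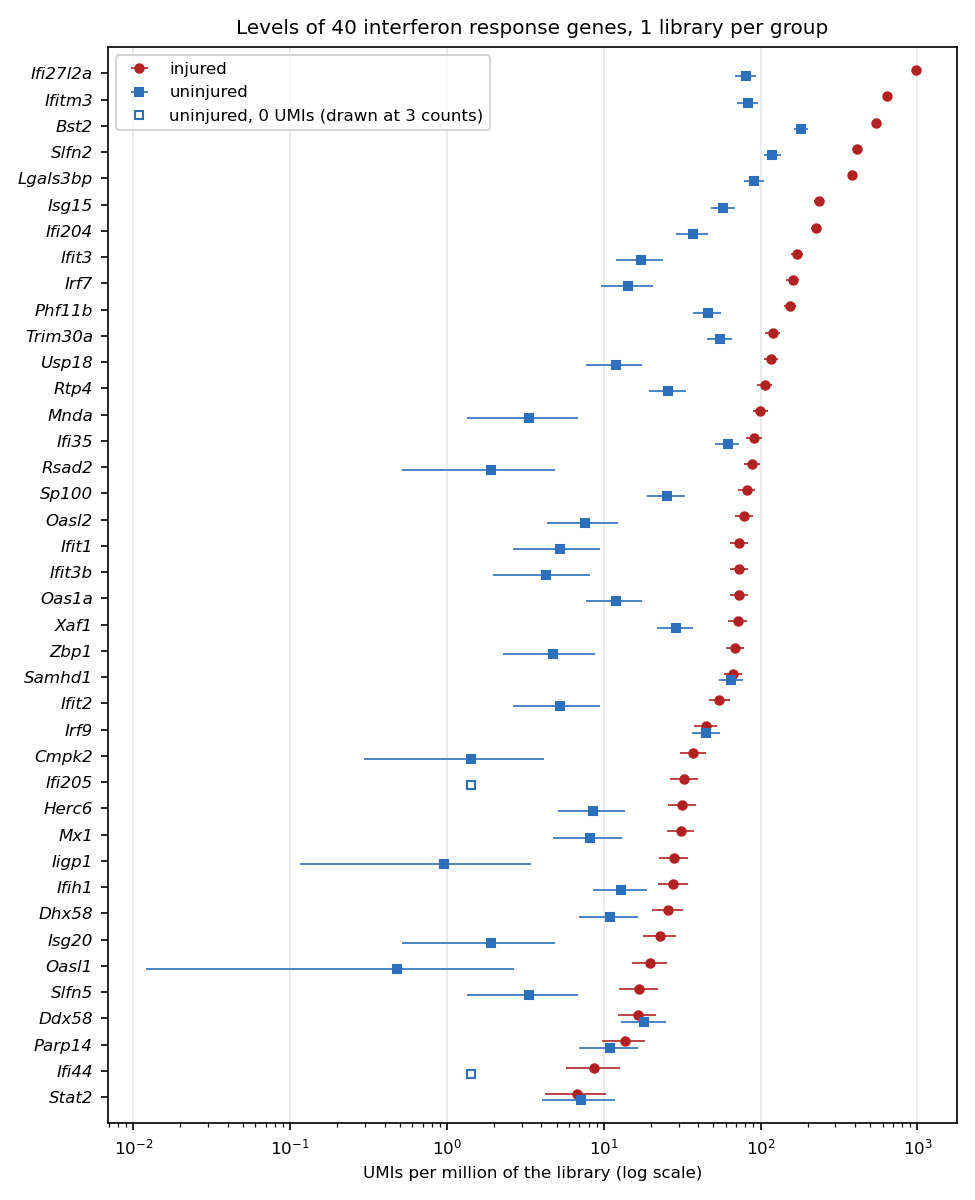
Level of each of the 40 interferon response genes in the injured (circles) and uninjured library (squares), in CPM on a log scale, ordered by the injured level, with bars for exact 95% Poisson intervals. Ifi27l2a, Ifitm3 and Bst2 were the highest after injury at 978, 635 and 547 CPM, and open squares mark Ifi205 and Ifi44 with 0 uninjured UMIs, drawn at the level of 3 counts.

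Cells were thinned at random to 1500 UMIs each so that both libraries could be compared at 1 depth, which left 567 injured and 604 uninjured cells. A thinned injured cell held a UMI of a median of 4 of the 40 genes (quartiles 2 and 6), and a thinned uninjured cell of 1 (quartiles 0 and 2). At least 10 of the genes were seen together in 58 injured cells (10.2%) and in 5 uninjured cells (0.828%). At least 20 were seen in 15 injured cells (2.65%, 1.49 to 4.33%) and in 0 of 604 uninjured cells, which allows a share of up to 0.497% by the 3-count limit and 0.609% by the exact interval. The injured library thus differed in its bulk, which sat a few genes higher, and in a thin tail of cells that carried most of the set.

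**Figure D2:**
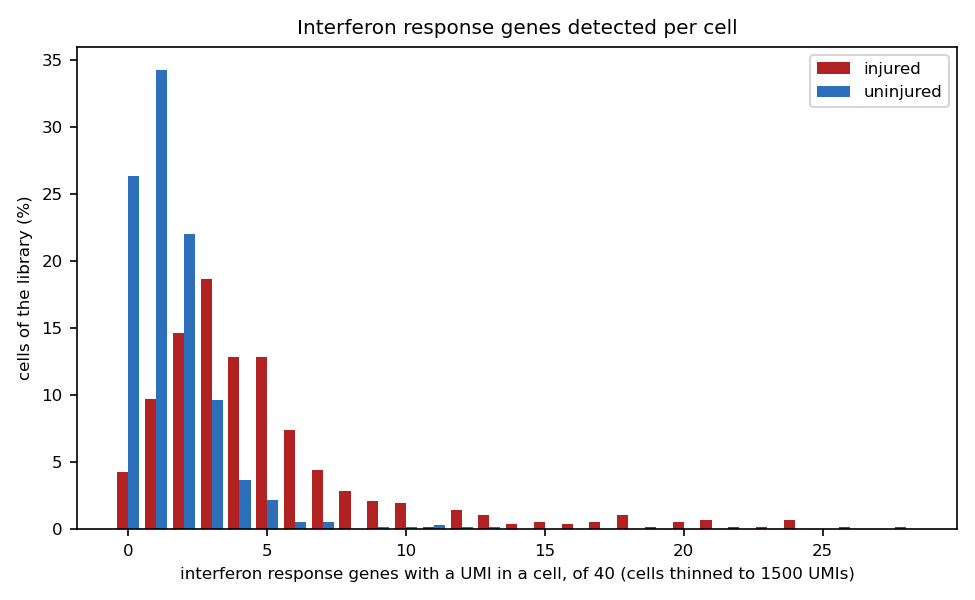
Number of the 40 genes with at least 1 UMI in a cell, for injured (left bar of each pair) and uninjured cells (right bar), as a percentage of the 567 and 604 cells thinned to 1500 UMIs. The injured cells have a median of 4 genes and a tail to 28, and the uninjured cells a median of 1 gene and a highest value of 13.

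To separate genes spread over the injured cells from genes held by few, cells were scored for each gene by the other 39 genes (the mean of the natural log of 1 plus UMIs per 10000). The 5% of cells with the highest score are called interferon-rich here, which is 29 injured and 35 uninjured cells. Since the gene itself was left out, its own UMIs did not choose those cells. The other genes are of the same kind and some share sequence with it. The share, and its comparison with all genes, is therefore not independent of the choice of cells. The 29 injured cells ranked by all 40 genes held 6.05% of all injured UMIs, and the median gene of the 9066 had 5.15% of its injured UMIs there. A gene was taken as held by few cells where this share reached 30%, and as present in most cells where at least 50% of thinned injured cells had a UMI and its level was at least 2-fold higher.

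By these rules 27 of the 40 genes were held by few cells, against 1.11% of all genes, 1 was in most cells, against 0.21%, and 12 were in neither class. The name of the first class marks a share of at least 30% and no more. The share reached 50% for 15 genes, and Ifitm3, at 33.8%, had a UMI in 63.6% of injured cells before thinning. The gene in most cells was Ifi27l2a, and with cells not thinned Ifitm3, Bst2, Slfn2 and Lgals3bp also passed 50%. Close to the 30% line stood Ifi204 (32.6%) and Samhd1 (32.9%) just inside, and Ddx58 (29.4%) and Trim30a (27.6%) just outside. The 40 genes formed a range and not separate clusters.

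**Figure D3:**
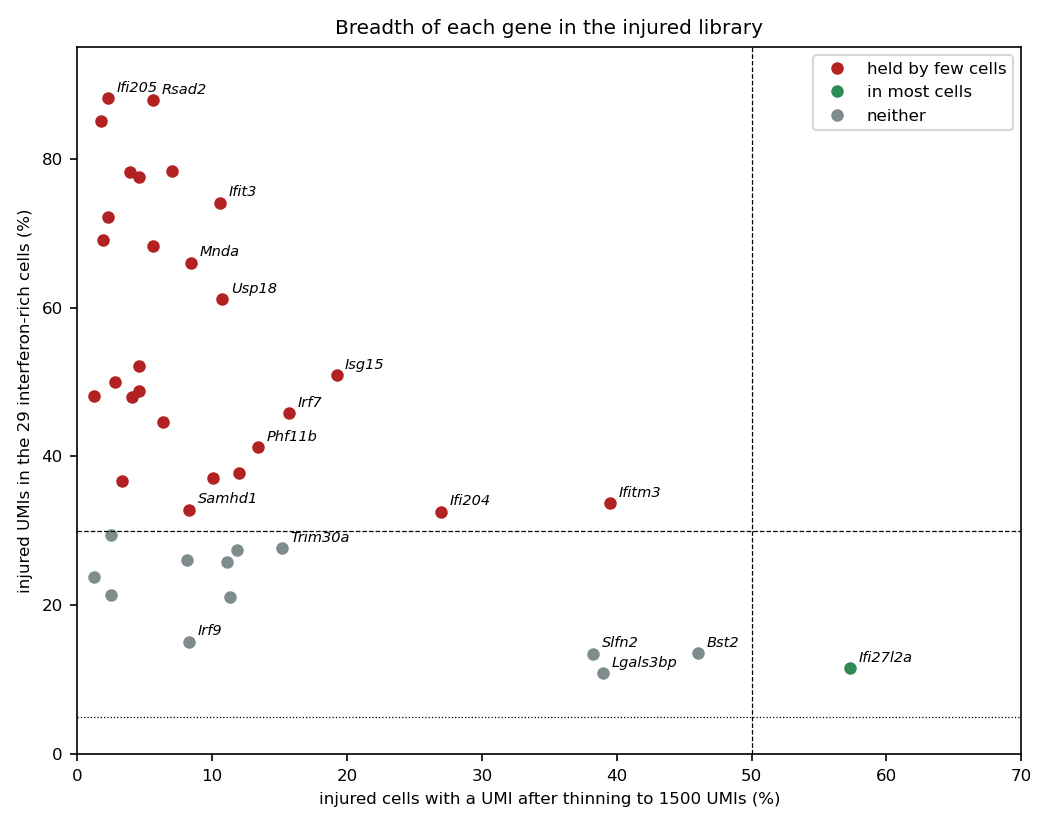
Each point is 1 of the 40 genes in the injured library, with the share of thinned cells that held a UMI on the horizontal axis and the share of its UMIs in the 29 interferon-rich cells on the vertical axis. Dashed lines mark 50% and 30% and the dotted line marks the 5% that an even spread over cells would give. Ifi27l2a lies at the lower right with 57.3% of cells, and Rsad2 and Ifi205 at the upper left with 87.9% and 88.1% of UMIs.

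The widely detected genes came first by level. Ifi27l2a, a small interferon-induced membrane protein, had 3028 injured UMIs and 168 uninjured UMIs, or 978 CPM (944 to 1014) against 80.3 CPM (68.6 to 93.4), a 12.2-fold difference (log2 3.61, 3.38 to 3.84). It was seen in 57.3% (53.1 to 61.4%) of thinned injured cells and 7.62% (5.63 to 10.0%) of thinned uninjured cells, and without thinning in 76.3% and 13.4%. Interferon-rich cells held only 11.5% of its injured UMIs, and without the interferon-rich cells of both libraries its log2 ratio was 3.72. Injured cells with a UMI held 6.88 on average and uninjured ones 1.81, so more cells had it and each held more.

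Bst2, or tetherin, which holds budding virus particles on the cell surface, had 547 CPM in injured and 182 CPM in uninjured cells (log2 1.59, 1.43 to 1.75). It was seen in 46.0% of injured and 19.5% of uninjured thinned cells. Lgals3bp, a secreted galectin-binding glycoprotein, had 380 CPM against 91.3 CPM (log2 2.06, 1.84 to 2.29), with 39.0% of injured and 13.6% of uninjured thinned cells. Slfn2, a Schlafen family member that maintains immune cell quiescence, had 409 CPM against 119 CPM (log2 1.78, 1.58 to 1.98), with 38.3% against 14.9% of thinned cells. For these 3 genes the interferon-rich cells held 13.6%, 10.9% and 13.5% of injured UMIs, and the ratios without those cells (1.60, 2.02 and 1.79) were close to those with them.

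Background from free RNA was looked at in 4 injured barcodes with more UMIs of endothelial, oligodendrocyte and astrocyte markers than of microglial markers (median 3418 UMIs). Ifi27l2a was seen in 25% of these barcodes (1 UMI) and Bst2 and Lgals3bp in 0%, against 76.3%, 76.6% and 68.6% of all injured cells. Ifitm3 was also seen in 25% of the barcodes, with 15 UMIs. These cells could express the genes themselves, and 4 barcodes set no firm level.

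Ifitm3 and Ifi204 counted among the genes held by few cells, close to the 30% line, and were seen in more cells than the others of that class. Ifitm3, which stops enveloped viruses from fusing with endosomes, had 635 CPM (608 to 664) in injured and 82.7 CPM (70.8 to 95.9) in uninjured cells, a log2 ratio of 2.94 (2.72 to 3.18). Thinned cells with a UMI made up 39.5% of injured and 5.96% of uninjured cells, yet 664 of its 1967 injured UMIs (33.8%, 31.7 to 35.9%) lay in the 29 interferon-rich cells. Of its 173 uninjured UMIs 34 came from 6 cells with more macrophage or monocyte than microglial marker UMIs, and without such cells the log2 ratio was 3.24. Ifi204, of the Ifi200 family of DNA-binding proteins, had 225 CPM against 36.8 CPM (log2 2.61, 2.27 to 2.97) and was seen in 27.0% of injured and 5.30% of uninjured thinned cells, with 32.6% of injured UMIs in the interferon-rich cells.

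Among the nucleic acid sensors, 6 of 7 were at least 2-fold higher, against 7.22% of all genes. Zbp1, a sensor of Z-form nucleic acid that can trigger necroptosis, had 213 injured and 10 uninjured UMIs (log2 3.85, 2.94 to 4.93), with 44.6% of injured UMIs in interferon-rich cells. The RNA helicases differed from each other. Ifih1 (MDA5) was at 27.8 CPM in injured and 12.9 CPM in uninjured cells (log2 1.11, 0.47 to 1.79) and stood at 0.20 (-0.53 to 0.96) without the interferon-rich cells. Dhx58 (LGP2) had a log2 ratio of 1.22 (0.53 to 1.95) with those cells and 0.69 (-0.07 to 1.50) without them. Ddx58 (RIG-I) had 16.5 CPM in injured and 18.2 CPM in uninjured cells, with an interval of the log2 ratio from -0.77 to 0.51.

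Some members of the Ifi200 family were among the most concentrated. Mnda, called Ifi211 in GENCODE and RefSeq, had 309 injured and 7 uninjured UMIs (log2 4.90, 3.84 to 6.23), and 66.0% of its injured UMIs lay in interferon-rich cells. Ifi205 had 101 injured UMIs in 31 cells, 89 of them in interferon-rich cells, and 0 uninjured UMIs, which allows up to 1.43 CPM (3 counts) and makes it at least 22.8-fold higher. Their values are uncertain. Of the 50-base stretches in the last 1000 bases of their transcripts, 81.0% for Mnda and 40.5% for Ifi205 also occur in other genes, which for each include the other one, Mndal and Ifi204. No source used here says how shared reads were counted.

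The pathway's own signalling genes split. Irf7, the transcription factor that amplifies interferon production, had 160 CPM (146 to 175) in injured and 14.3 CPM (9.67 to 20.5) in uninjured cells (log2 3.48, 2.95 to 4.06), with UMIs in 171 injured and 22 uninjured cells. Its UMIs were concentrated (45.9% in interferon-rich cells), yet its log2 ratio was 3.60 (2.86 to 4.46) without those cells. Usp18, the protease that removes Isg15 and dampens receptor signalling, had 116 CPM against 11.9 CPM (log2 3.28, 2.70 to 3.93), with 61.1% of injured UMIs in interferon-rich cells and 3.25 without them.

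The transcription factor subunits differed little. Irf9 had 139 injured and 94 uninjured UMIs, or 44.9 CPM in each library, with an interval of the log2 ratio from -0.39 to 0.39. Stat2 had 6.78 CPM in injured and 7.17 CPM in uninjured cells, with an interval from -1.10 to 0.98 that holds 2-fold differences in the lower direction. Irf9 transcripts share a strand and an overlap with Rnf31, so part of its UMIs may belong there.

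The antiviral effectors held the largest differences, with 18 of 19 at least 2-fold higher, against 7.22% of all genes. Isg15, a ubiquitin-like protein attached to other proteins, had 727 injured and 121 uninjured UMIs, or 235 CPM against 57.8 CPM (log2 2.02, 1.74 to 2.31). Its thinned share of cells was 19.2% of injured and 9.27% of uninjured cells, and 50.9% of injured UMIs lay in interferon-rich cells, without which the log2 ratio was 1.24 (0.92 to 1.57). Herc6, the mouse ligase that attaches Isg15, had 31.7 CPM against 8.60 CPM with a log2 ratio of 1.88 (1.15 to 2.69), or 1.02 (0.21 to 1.91) without interferon-rich cells.

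The protein of Ifit1 binds viral RNA that lacks host cap marks, and all 4 Ifit genes were held by few cells. Ifit3 had 171 CPM in injured and 17.2 CPM in uninjured cells (log2 3.31, 2.82 to 3.84). Its 529 injured UMIs lay in 95 cells, up to 47 in 1 cell, and 392 of them (74.1%, 70.1 to 77.8%) in interferon-rich cells, of which 28 of 29 had a UMI. Among injured cells with Y-linked UMIs and no Xist UMI, the top 5% held 36.6% of Ifit3 UMIs. Ifit2, Ifit3b and Ifit1 had 77.5%, 78.3% and 68.3% of injured UMIs there, with log2 ratios of 3.38, 4.09 and 3.80. Ifit3 and Ifit3b share 47.2% and 21.8% of their 50-base stretches with other genes, among them each other, so their split is uncertain.

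Rsad2 (viperin), which makes a chain-terminating nucleotide, and its neighbour Cmpk2, a mitochondrial nucleotide kinase, were also alike. Rsad2 had 273 injured and 4 uninjured UMIs (log2 5.53, 4.16 to 7.41), with 240 injured UMIs in interferon-rich cells, and 33 injured against 3 uninjured UMIs outside them (log2 2.90, 1.23 to 5.25). Among injured cells with Y-linked UMIs and no Xist UMI, with 14 Rsad2 UMIs, the top 5% held 35.7%. Cmpk2 had 115 against 3 UMIs (log2 4.70, 3.11 to 6.99) with 78.3% in those cells. Iigp1, a GTPase that attacks parasite vacuoles, had 87 against 2 UMIs (log2 4.88, 2.98 to 7.95), with 85.1% there and 13 against 2 UMIs outside them (log2 2.14, with an interval that reaches just below 0). These genes were nearly silent in uninjured cells and in most injured cells.

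The 2′-5′ oligoadenylate synthetase family was less uniform. Oas1a, which makes the messenger that activates RNase L, had 73.0 CPM against 11.9 CPM (log2 2.61, 2.01 to 3.27) with 26.1% of injured UMIs in interferon-rich cells. Oasl2 had 78.5 CPM against 7.64 CPM (log2 3.36) with 37.0%, and Oasl1, a repressor of Irf7 translation in mice, had 61 against 1 UMIs (log2 5.37, 2.83 to 10.69) with 72.1%. Oas1a shares 58.2% of its 50-base stretches with Oas1g, which had 42 injured and 2 uninjured UMIs of its own.

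The other effectors ran from concentrated to flat. Isg20, an exonuclease, had 69.0% of injured UMIs in interferon-rich cells and a log2 ratio of 3.59. Mx1, an antiviral GTPase that is defective in most inbred mouse strains, had 52.1% and 1.93. Rtp4, a Golgi chaperone, had 106 CPM in injured and 25.8 CPM in uninjured cells (log2 2.04, 1.62 to 2.48), with 37.8% of injured UMIs in interferon-rich cells and a log2 ratio of 1.83 without them. Trim30a, which restrains Toll-like receptor signalling, had 27.6% there and a log2 ratio of 1.12, or 0.79 without interferon-rich cells. Samhd1, which breaks down deoxynucleotides, had 66.9 CPM in injured and 65.0 CPM in uninjured cells, and without the interferon-rich cells its log2 ratio was -0.41 (-0.77 to -0.05).

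Against 7.22% of all genes, 8 of the 10 remaining genes were at least 2-fold higher. Besides the widely detected Ifi27l2a, Slfn2 and Lgals3bp, these were the nuclear body protein gene Sp100 (log2 1.68, 1.25 to 2.14), the apoptosis factor gene Xaf1 (1.32, 0.90 to 1.75), Phf11b, Slfn5 (2.33, 1.18 to 3.71) and Ifi44. Phf11b had 153 CPM in injured and 45.9 CPM in uninjured cells (log2 1.74, 1.42 to 2.07), with 41.3% of injured UMIs in interferon-rich cells and a log2 ratio of 1.30 without them. Ifi44 had 27 injured and 0 uninjured UMIs and was at least 6.09-fold higher. Ifi35 had 90.5 CPM against 61.6 CPM (log2 0.55, 0.25 to 0.87), and the ADP-ribosyltransferase gene Parp14 had 13.6 CPM against 11.0 CPM (0.30, -0.46 to 1.10).

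Genes with nearly the same number of injured UMIs showed how breadth and level come apart. Ifit3 (529 UMIs), Irf7 (495 UMIs) and Phf11b (475 UMIs) were seen in 16.5%, 29.6% and 34.3% of injured cells. Rsad2 (273 UMIs) was seen in 9.19% of injured cells and Ifi35 (280 UMIs) in 31.5%. Injured cells with a UMI held 5.15 UMIs of Rsad2 and 1.54 of Ifi35 on average.

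**Figure D4:**
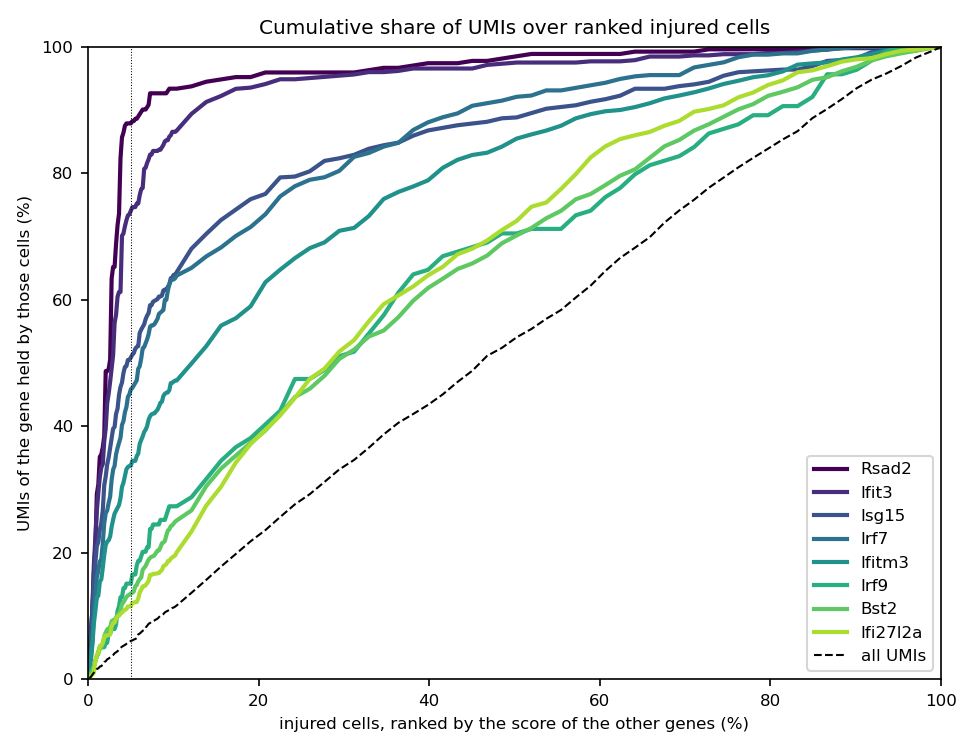
Cumulative share of each gene's injured UMIs (vertical axis, percent) over injured cells ranked from the highest score of the other genes (horizontal axis, percent of 577 cells); the dashed line gives all UMIs, ranked by all 40 genes. At the dotted line of 5% of cells Rsad2 has reached 87.9%, Ifit3 74.1%, Isg15 50.9%, Irf7 45.9% and Ifi27l2a 11.5%.

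Detection of 1 gene went with detection of the others. Of the 95 injured cells with an Ifit3 UMI, 50.5% had Ifit1, 73.7% Isg15, 69.5% Irf7 and 38.9% Rsad2, against 3.73%, 28.2%, 21.8% and 3.32% of the 482 without. For Ifi27l2a the shares were 91.6% and 73.2%, and for Bst2 95.8% and 72.8%. Deeper cells hold more genes of every kind, and the part of depth in these shares was not tested.

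Leaving out the interferon-rich cells of both libraries did not remove the difference between the libraries for most genes. The median log2 ratio of the 40 genes was then 1.88, against -0.14 over all genes, and 31 genes were at least 2-fold higher, against 7.27% of all genes. The genes that lost the 2-fold size were Trim30a, Ifih1 and Dhx58. Ranked by all 40 genes, the cut fell at no gap, with scores of 1.10 for the last injured cell inside and 1.08 for the next. More injured cells (42) than the 29 left out scored above every uninjured cell. The uninjured cells left out held 15 of 30 uninjured UMIs of Irf7 and 1 of 27 of Ifih1. These ratios are therefore not those of injured cells without high scores. Of the 27 genes held by few cells, 26 were at least 2-fold higher with all cells and 24 without the interferon-rich cells. The log2 ratio of Rsad2 was 2.90 without these cells and 5.53 with them, and that of Iigp1 2.14 and 4.88. Oasl1 and Ifi205 had 0 uninjured UMIs left and stood at log2 bounds of at least 1.94 and 1.44, so the size of their change is not known.

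**Figure D5:**
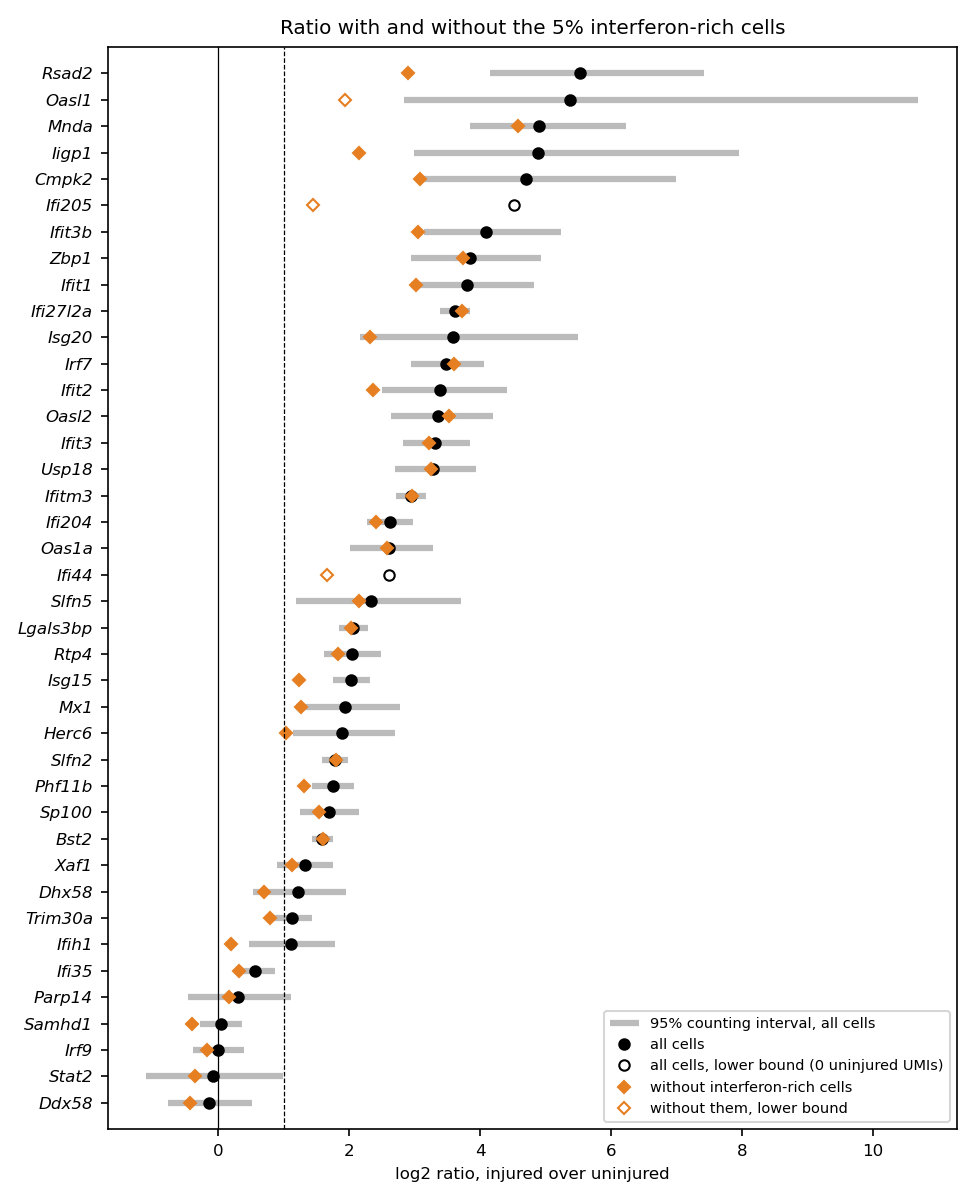
Log2 ratio of injured over uninjured for each gene with all cells (circles, grey bars for exact 95% counting intervals) and without the 5% interferon-rich cells of each library (diamonds). Open symbols are lower bounds where no uninjured UMI was counted, and the dashed line marks the 2-fold size. Diamonds of Rsad2 and Iigp1 stand far left of their circles, those of Oasl1, Ifi205 and Ifi44 are bounds, and those of Ifi27l2a, Bst2, Ifitm3 and Irf7 lie close to theirs.

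The 29 injured cells richest in all 40 genes carried microglial markers, at lower levels than the other injured cells. Their summed microglial marker level was 13795 CPM, against 15938 CPM in the other 548 injured cells, with P2ry12 at 656 against 849 CPM, Tmem119 at 342 against 764 CPM and Cx3cr1 at 208 against 365 CPM. A P2ry12 UMI was seen in 96.6% of them and 85.2% of the others, which were less deeply sampled. Markers of border or perivascular macrophages stood at 101 CPM in these cells and 185 CPM in the others, and Mrc1, Ly6c2 and Ccr2 had 0 UMIs in them. Monocyte markers summed to 26.7 CPM (5 UMIs) in these cells and 13.1 CPM (38 UMIs) in the others, and endothelial markers to 58.7 CPM (11 UMIs) and 18.6 CPM (54 UMIs). The part of these markers in the gene set's levels was not tested. Their median depth was 5918 UMIs, against 4342.5 UMIs in the others, and Spp1 was at 10406 CPM against 12524 CPM. In the 35 richest uninjured cells border macrophage markers stood at 783 CPM, against 104 CPM in the other uninjured cells. Of these 35 cells 3 had more macrophage or monocyte than microglial marker UMIs. The 35 cells together had microglial markers at 20785 CPM, against 26707 CPM in the other uninjured cells. The highest-scoring uninjured cell scored below 42 injured cells.

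Cells with Xist UMIs alone were more frequent among the interferon-rich injured cells than among the others, and cells with Y-linked UMIs alone less frequent. Of the 29 interferon-rich injured cells 17 had Xist UMIs alone and 6 had Y-linked UMIs alone, against 196 and 141 of the other 548. The 27 genes held by few cells summed to 3722 CPM in injured cells with Xist UMIs alone and 1723 CPM in those with Y-linked UMIs alone, and the other 13 genes to 2961 and 2696 CPM. Rsad2 had 184 UMIs (151 CPM) in the 213 cells with Xist and 14 UMIs (17.1 CPM) in the 147 cells with Y-linked UMIs, while Ifi27l2a had 920 and 886 CPM. Slfn5, Dhx58 and Ifi44, also held by few cells, were not higher with Xist. Slfn5 had 12.3 CPM (15 UMIs) with Xist and 24.5 CPM (20 UMIs) with Y-linked UMIs. Within cells with Y-linked UMIs alone the log2 ratio of injured over uninjured was 2.13 for Ifit3. Rsad2 had 14 injured and 0 uninjured UMIs in these cells, so its value of 2.20 is a lower bound. Isg15 (0.89), Mx1 (0.98), Trim30a (0.66) and Ifih1 (0.42) were below 2-fold. Sex and animal cannot be told apart in 1 library.

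Sums over the set were also taken across injured cell states. In the 43 thinned cells with a Gpnmb UMI, a gene of phagocytic cells, the genes held by few cells summed to 2519 CPM, against 2714 CPM in the 524 without. With and without a P2ry12 UMI they summed to 2886 CPM (335 cells) and 2493 CPM (232 cells). Single genes differed more than the sums. Oasl1 had 5.98 CPM in cells with a Gpnmb UMI, from 2 UMIs only, and 21.5 CPM (59 UMIs) in cells without. Ifitm3 had 721 and 626 CPM in these groups. Rsad2 had 117 CPM in cells with and 59.8 CPM in cells without a P2ry12 UMI. Of the 43 Gpnmb cells 1 was interferon-rich.

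Genes upstream of the set were counted in the same way. Of 10 interferon genes looked at, Ifnb1 had 12 UMIs in 5 injured cells and 4 UMIs in 3 uninjured cells (log2 1.02, -0.70 to 3.11), and the other 9, Ifng among them, had 0 UMIs in both. The genes named from each pathway list here were chosen after their values were seen, and the counts below are to be read beside the 7.22% higher and 11.5% lower of all genes. Of 8 measured receptor and kinase genes 0 were at least 2-fold higher and 1, Ifngr1 of the interferon gamma receptor, was lower (log2 -1.27, -1.40 to -1.14). Ifnar1 and Ifnar2 stood at 0.14 (-0.40 to 0.69) and -0.20 (-0.38 to -0.01). The transcription factor gene Irf1 was lower (-1.73, -2.03 to -1.43), and of 3 measured feedback genes Socs3 was lower (-1.62, -1.75 to -1.48). Of 11 sensing and adaptor genes 2 were at least 2-fold higher, Tlr2 (1.10, 0.99 to 1.21) and Ikbke, whose interval covers 0 (1.10, -0.28 to 2.71), and 1 was at least 2-fold lower, Tmem173, which encodes the DNA-sensing adaptor STING (-1.19, -1.44 to -0.94).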

How the data were processed

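The authors deposited raw UMI counts, as whole numbers, for every barcode. The submitters' processing notes name STAR, Cell Ranger 2.0.1, Seurat 2.1.0 and GRCm38.p5 (mm10), without roles. The annotation used and the barcode filter are not stated in those notes. The matrices held 580 injured and 705 uninjured barcodes. Those with 200 or more genes and no more than 10% mitochondrial UMIs were kept (577 with 3095511 UMIs and 695 with 2093084 UMIs), with no doublet caller. UMIs were summed per library and scaled to CPM. Poisson and Clopper-Pearson intervals are at 95%, and a library at 0 UMIs was set to 3 counts. The interval of a ratio was derived from the binomial interval of the part of a gene's UMIs that was injured. Ratios were tested on simulated data. Thinning drew 1500 UMIs per cell without replacement and left out 10 injured and 91 uninjured cells. Interferon-rich cells are the top 5% by the mean log(1 + UMIs per 10000) of the other genes. Alternatives used factors from edgeR 4.0.16 (TMM) and DESeq2 1.42.0. Python 3.11.15, numpy 2.4.6, scipy 1.17.1 and R 4.3.3 were used.

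The 40 genes, the lists and the thresholds were chosen with earlier results of these data known. All 40 genes are accounted for. Full values were set for the gene in most cells, the 8 genes held by few cells with most injured UMIs, and genes at a bound or below 2-fold. Genes outside the set come from pathway lists or are the 10 most concentrated in interferon-rich cells with at least 50 injured UMIs. The splits by Gpnmb, P2ry12 and Xist and the Ifit3 co-detection were chosen after seeing the data.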

Additional observations from a re-analysis of the deposited data

How the results depend on the processing

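The count of genes at least 2-fold higher, 34 of 40, lay between 30 and 34 under every alternative that kept all 40 genes, and was 29 of 32 with a minimum of 100 UMIs. The median log2 ratio of 2.47 was 1.88 without the interferon-rich cells and lay between 1.94 and 2.62 under the other alternatives. TMM and DESeq2 factors shifted every log2 ratio by 0.14 and 0.15. No ratio of a gene at least 2-fold higher changed its sign. Cells with Y-linked UMIs and no Xist UMI took Isg15 (0.89), Mx1 (0.98), Trim30a (0.66) and Ifih1 (0.42) below the 2-fold size. Thinning every cell took Dhx58 below it and Parp14 above it (1.19), and the mean over cells took Ifih1 below it. The count of genes in most injured cells depended on depth and threshold. It was 1 as reported, 0 with cells thinned to 1000 UMIs, 4 at 2500 UMIs, 5 without thinning, 6 at a threshold of 25% of cells and 0 at 75%. The count of genes held by few cells was 27 as reported, 16 with the top 2% of cells, 35 with the top 10%, 27 with cells ranked by the number of other genes seen, 35 at a threshold of 20% of UMIs, 15 at a threshold of 50% of UMIs, and 21 in cells with Y-linked UMIs and no Xist UMI. In those cells Rsad2 had 35.7% and Ifit3 36.6% of UMIs in the top 5%. Cause was not tested. No paired analysis was possible because each group has 1 library. Genes under 30 uninjured UMIs rest on few molecules, and their ratios are wide.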

Other observations

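Outside the set, 4759 genes with at least 50 injured UMIs were ranked by the share of injured UMIs in the 29 interferon-rich cells, with mitochondrial, ribosomal protein and unnamed genes left out. The 10 highest were Phf11a (72.2%, 60.9 to 81.7%), Pydc4 (72.0%), Loxl2 (67.1%), Pyhin1 (55.4%), Gbp2 (52.0%), Phf11d (50.3%), Slc25a22 (47.9%), Cd40 (47.3%), Ms4a4c (46.9%) and Igtp (46.2%). Pydc4 and Pyhin1 are Ifi200 family genes, Gbp2 and Igtp encode interferon-induced GTPases, and Cd40 encodes a costimulatory receptor. Loxl2, a lysyl oxidase of the extracellular matrix, had 51 of 76 injured UMIs in these cells, with 33 uninjured UMIs and a log2 ratio of 0.64 (0.03 to 1.27), which was -0.96 without the interferon-rich cells.

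The guanylate-binding proteins and related GTPases, induced chiefly by interferon gamma in textbook accounts, were concentrated in the interferon-rich cells and differed between the libraries in both directions. All 9 measured members had at least 30% of injured UMIs in those cells, with a median of 45.8%, against 1.11% of all genes with such a share. Their median log2 ratio was 0.12 and 2 were at least 2-fold higher (7.22% of all genes), Gbp2 (2.18, 1.47 to 2.96) and Ifi47 (2.12, 0.96 to 3.51). Gbp7 was at least 2-fold lower (-1.19, -1.73 to -0.66). The genes named here were chosen after their values were seen. Among 18 measured relatives of the 40 genes, 7 were at least 2-fold higher, against 7.22% of all genes, and 10 had at least 30% of injured UMIs in interferon-rich cells, against 1.11%. Ifitm2, a relative of Ifitm3, had only 7.64% there at a log2 ratio of 1.58 (1.20 to 1.97), and Ifi27, a relative of Ifi27l2a, was lower (-1.07, -1.31 to -0.84). The chemokine gene Cxcl10 had 37.2% of its 1040 injured UMIs in interferon-rich cells (log2 1.75, 1.53 to 1.97).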
